A study of Mus musculus with 36 samples.

Results

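The genes described here encode the subunits of the receptors for glutamate and GABA, the main excitatory and inhibitory transmitters of the brain. They were chosen by symbol from the protein-coding genes of RefSeq assembly GRCm38.p6: all numbered Gria, Grik, Grid and Grm genes, the Grin genes, the Gabr genes with a single letter for the subunit class, and Gabbr1 and Gabbr2. The rule found 47 of 21887 protein-coding genes, 26 for glutamate receptors and 21 for GABA receptors, and used no measured value. The largest family was GABA-A with 19 genes, followed by metabotropic glutamate receptors with 8, NMDA with 7, kainate with 5, AMPA with 4, and delta and GABA-B with 2 each.

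The study followed the genomic occupancy of histone H4 carrying an HA tag, a short peptide recognised by an antibody, and of its K91R and K91Q forms, in which lysine 91 is arginine or glutamine. All 4 groups used here were mouse embryonic stem cells (mESCs) that stably carried a PiggyBAC vector, a transposon that inserts into the genome: an empty vector (EV), PiggyBAC_H4WT_3HA, PiggyBAC_H4K91R_3HA or PiggyBAC_H4K91Q_3HA. The titles call all 4 lines parental and the labels name no other allele. What promoter drives the transgene, and whether a line is 1 clone, is not given in the sources used here. Pulldowns on anti-HA magnetic beads were compared with the input of the same line, and 4 of the 36 samples were analysed, with 1 library per group. No value below therefore has a replicate check, and no p-value is given. The deposited peak lists held 69158 peaks for H4WT, 49155 for H4K91R, 14314 for H4K91Q and 3007 for EV. They give no read numbers, so depth is unknown, and the identity of the cells cannot be checked from them.

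Ionotropic receptors (NMDA, AMPA, kainate and GABA-A) are channels assembled from several subunits, so a cell's choice of subunit genes sets the properties of its synapses. Metabotropic glutamate and GABA-B receptors signal through G proteins, and the delta subunits organise synapses. Most of these genes are known from mature neurons. In embryonic stem cells many developmental and neuronal CpG-rich promoters carry Polycomb-type chromatin. H4 is part of every nucleosome, so a peak of tagged H4 marks a place where the pulldown exceeded its input and is not a mark of activity.

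Start windows of 4 members are printed as examples and hold 3 to 33 CpG. The windows of the 32 members with a listed start hold 0 to 50. Each window runs from 250 bases before to 50 bases after the annotated start, 5′ to 3′ on the gene's strand, from RefSeq GRCm38.p6, and capitals mark CpG dinucleotides. Grin1 (chr2:25319138-25319437, minus strand) and Gria2 (chr3:80802786-80803085, minus strand) encode the obligatory NMDA subunit and the AMPA subunit that limits calcium entry. Gabrg3 (chr7:57387166-57387465, minus strand) and Gabrg1 (chr5:70842568-70842867, minus strand) encode gamma subunits of GABA-A receptors and are shown as a pair with and without tagged H4. The 4 were picked after their values were seen.
Grin1: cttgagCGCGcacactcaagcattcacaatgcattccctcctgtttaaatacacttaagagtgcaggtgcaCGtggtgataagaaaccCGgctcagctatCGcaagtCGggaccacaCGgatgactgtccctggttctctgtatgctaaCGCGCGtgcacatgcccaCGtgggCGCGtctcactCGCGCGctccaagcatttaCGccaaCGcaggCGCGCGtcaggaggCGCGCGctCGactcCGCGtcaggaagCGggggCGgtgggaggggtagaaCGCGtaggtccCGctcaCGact
Gria2: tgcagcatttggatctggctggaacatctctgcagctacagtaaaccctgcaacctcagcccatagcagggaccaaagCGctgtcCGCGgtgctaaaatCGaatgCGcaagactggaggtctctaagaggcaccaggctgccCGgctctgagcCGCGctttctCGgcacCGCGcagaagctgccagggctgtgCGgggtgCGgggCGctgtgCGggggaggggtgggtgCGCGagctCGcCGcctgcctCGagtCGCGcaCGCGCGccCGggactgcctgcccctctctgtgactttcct
Gabrg3: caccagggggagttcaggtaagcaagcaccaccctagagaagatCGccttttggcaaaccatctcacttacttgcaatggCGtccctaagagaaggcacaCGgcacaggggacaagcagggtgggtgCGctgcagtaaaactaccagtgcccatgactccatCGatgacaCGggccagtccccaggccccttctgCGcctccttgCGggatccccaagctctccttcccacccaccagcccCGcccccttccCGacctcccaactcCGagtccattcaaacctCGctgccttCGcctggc
Gabrg1: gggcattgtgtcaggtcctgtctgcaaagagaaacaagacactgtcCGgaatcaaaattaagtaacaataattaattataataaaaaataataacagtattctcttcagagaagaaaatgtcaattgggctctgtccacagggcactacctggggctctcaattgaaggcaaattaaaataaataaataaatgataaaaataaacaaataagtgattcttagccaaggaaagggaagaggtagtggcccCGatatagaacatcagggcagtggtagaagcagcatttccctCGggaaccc

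The Grin1 window holds 33 CpG, and 226 of its 300 bases lay under an H4WT region and 187 under an H4K91R region. The Gria2 window holds 26 CpG, with 235 bases under H4WT and none under H4K91R. In the Gabrg3 window, with 13 CpG, H4WT covered 36 bases and H4K91R reached the same 1 kb without entering the window. Gabrg1, with 3 CpG, had no tagged H4 region at its start or anywhere in the gene. No H4K91Q or EV region entered any of these windows.

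The first question was how many receptor genes had tagged H4 at a gene end, meaning a region that overlaps the 1 kb on either side of an annotated end. Tagged regions that met an EV region were left out beforehand. H4WT was present at 32 of 47 genes, or 68.1% (exact 95% interval 52.9 to 80.9), beside 58.4% of all protein-coding genes. H4K91R was present at 22, or 46.8% (32.1 to 61.9), beside 37.9% of all genes. Both intervals hold the share of all genes, so no difference from other genes was detectable with 47 members. H4K91Q was present at 0 of 47, which allows a share of up to 6.38%, beside 1.27% of all genes. EV regions lay at 2 genes, Grin2c and Grm4, or 4.26% (0.52 to 14.5), beside 1.67% of all genes. All intervals cover counting error only.

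Counted over the whole gene and 1 kb beyond it, H4WT was present at 39 genes, or 83% (69.2 to 92.4), beside 68.2% of all genes. H4K91R was present at 33, or 70.2% (55.1 to 82.7), beside 52.8%. H4K91Q was present at 8, or 17% (7.65 to 30.8), beside 7.26%, and EV at 12, or 25.5% (13.9 to 40.3), beside 7.58%. Receptor genes are long, with a median of 183 kb and the shortest, Grin3b, at 6.79 kb, against a median of 17.2 kb for all protein-coding genes. Within classes of gene length the excess over all genes did not hold throughout. H4WT was present over 87.5% of the 8 members under 20 kb, 69.2% of the 13 of 20 to 100 kb, 70% of the 10 of 100 to 300 kb and 100% of the 16 longer ones, beside 56.5%, 78.9%, 90.5% and 94.8% of all genes of these lengths. For H4K91R the shares were 75%, 53.8%, 50% and 93.8%, beside 41.3%, 61.7%, 79.1% and 89%. In these 2 lists members were thus above all genes in the shortest and longest classes and below in both between. H4K91Q shares were 0%, 7.69%, 0% and 43.8%, beside 2.17%, 9.03%, 21.7% and 42.9%. EV shares were 37.5%, 23.1%, 10% and 31.2%, beside 4.41%, 9.57%, 15.4% and 21.2%, so EV was below all genes only from 100 to 300 kb.

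**Figure D1:**
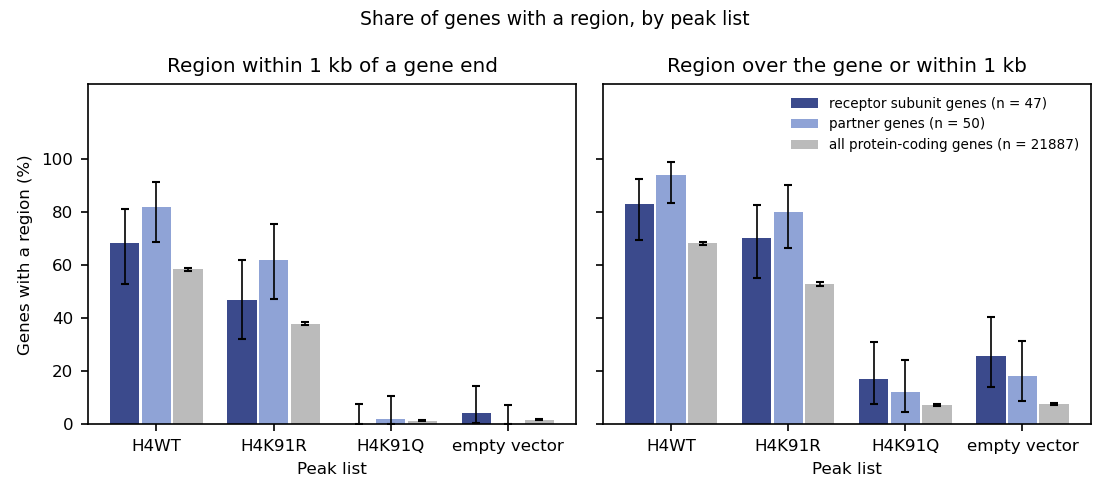
Percentage of genes with a region in each peak list (vertical axis), for the 47 receptor genes, 50 partner genes of the same synapses and all 21887 protein-coding genes, at gene ends (left) and over the gene (right). Bars start at 0 and error bars are exact 95% intervals; for H4K91Q at gene ends the receptor bar is at 0.

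All 7 NMDA receptor genes had H4WT at a gene end (exact interval 59 to 100%), beside 58.4% of all genes, and 5 had H4K91R there (29 to 96.3%), beside 37.9%. NMDA receptors are calcium-permeable channels that need glutamate and a co-agonist. Fold enrichment as the authors deposited it for each peak, read here only within a list, was highest among members' end regions at Grin3b (12.6 for H4WT), Grin2c (12) and Grin1 (11.2). These 3 genes ranked 331, 529 and 893 of the 12775 genes with H4WT at an end. In the H4K91R list the same measure was 7.34 at Grin3b, 7.37 at Grin2c and 6.96 at Grin1. Grin2a, a glutamate-binding subunit, had the highest fold of all members at a gene end in the H4K91R list, 8.5, and had 8.57 in the H4WT list. Grin2d had 8.08 for H4WT and 4.63 for H4K91R. Grin2b (7.23) and the glycine-binding Grin3a (7.85) had H4WT at an end and H4K91R only inside the gene, with highest folds of 4.76 and 5.2. None of the 7 genes had an H4K91Q region.

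EV regions lay over 5 of 7 NMDA genes, or 71.4% (29 to 96.3), beside 7.58% of all genes: Grin1, Grin2b, Grin2c, Grin2d and Grin3b. Of the 19 GABA-A genes 1 had an EV region. Grin1 had 2 of them, with folds of 5.62 and 4.93, and the others 1 each, with 5.34 at Grin2b, 5.21 at Grin2c, 5.47 at Grin2d and 6 at Grin3b. These folds lay around the median of the whole EV list, 5.48. The −log10 q (the deposited significance of a peak) of these NMDA-gene regions ran from 3.34 to 4.92. None would remain at a stricter −log10 q of 5, which also lowers the share of all genes with EV from 7.58% to 2.29%. The other 7 members with EV were Gabrb1 (5.65), Gabbr2 (6.53), Grid1 (5.34), Grik3 (6.51), Grm2 (4.9), Grm5 (7.19) and Grm4 (up to 6.68). At the start of Grin2c an H4WT region of fold 10.3 was among those left out because it met an EV region, so the H4WT signal counted there is at the other end of the gene only. The part of this background in the NMDA results was not tested. The strongest H4WT regions of Grin3b and Grin1 lay at the end away from the start, within 1 kb of an end of Tmem259 and of Lrrc26, and the Grin1 region also overlaps the antisense gene Grin1os. At the start itself the H4WT fold was 9.85 at Grin1 and 8.75 at Grin3b.

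**Figure D2:**
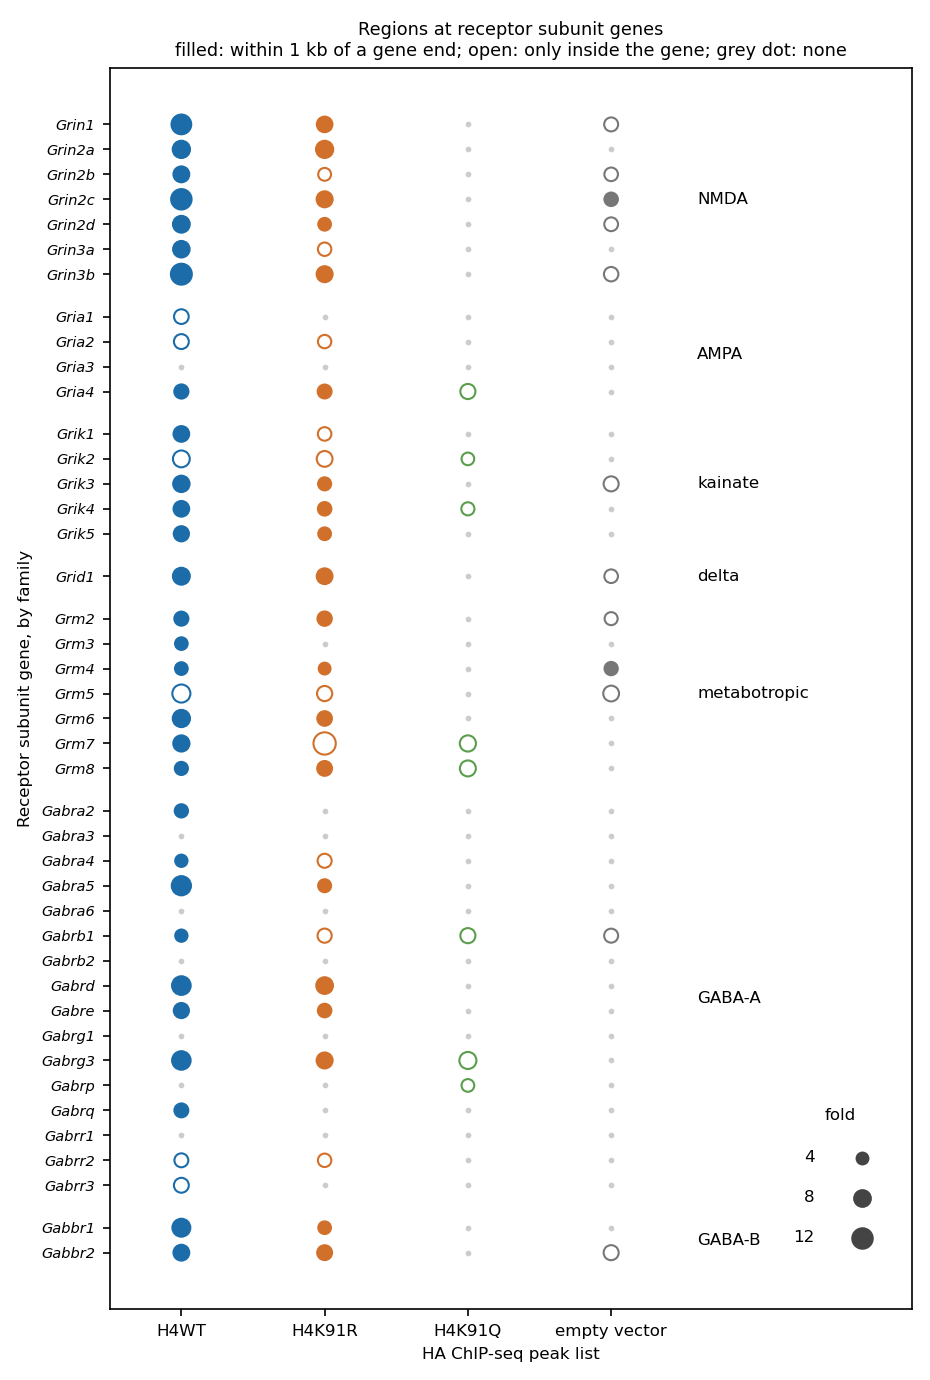
The 42 receptor genes reported by name (rows, by family) in every peak list (columns); point area is proportional to the authors' fold. Filled points show the strongest region within 1 kb of a gene end, open points the strongest region of genes with regions only inside, and grey dots no region. The H4WT column is filled for all 7 NMDA genes, and the H4K91Q column has open circles only, at 8 genes.

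AMPA receptors carry fast excitation. Of their 4 genes 1 had H4WT at an end (25%, 0.631 to 80.6), beside 58.4% of all genes. H4K91R was at an end of 1 as well, beside 37.9% of all genes. Gria4 alone had H4WT (5.75) and H4K91R (5.57) at an end. Gria2 had 1 H4WT region (6.39) and 1 H4K91R region (5.16), neither within 1 kb of an end of the RefSeq gene. The H4WT region lies 1.33 kb inside that end and covers most of the listed start window printed above, and the H4K91R region lies 3.14 kb inside. Gria1 had 2 neighbouring H4WT regions (6.23 and 5.57) about 29 kb inside the gene and none of H4K91R. Gria3, on the X chromosome, had no region in any list.

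Of the kainate receptor genes, Grik1, Grik3, Grik4 and Grik5 had H4WT at an end, with folds of 7.05, 7.71, 7.05 and 6.62. Grik3, Grik4 and Grik5 had H4K91R there too, with 4.90, 5.26 and 4.66. Grik2 had an H4WT region of fold 8.14 beside its listed start, inside the gene end, covering 34 bases of the start window. It had no H4K91R within 1 kb of that start. Grik5, a high-affinity subunit gene of 65.8 kb, had 17 H4WT and 5 H4K91R regions, the strongest H4WT region (10.6) lying 5.55 kb inside the gene.

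At Grid1, a delta subunit gene, the H4WT fold was 8.20 over a region of 1896 bp, the widest of those kept over any member, and H4K91R covered the same place with 3 regions of up to 7.14.

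Among the metabotropic glutamate receptor genes, Grm6, the receptor of retinal ON bipolar cells, had an H4WT end fold of 8.52 and Grm7 of 7.52, and values for Grm2, Grm8, Grm4 and Grm3 lay between 4.57 and 5.68. H4K91R end folds were 6.30 at Grm8, 6.14 at Grm6, 5.91 at Grm2 and 4.02 at Grm4. The values for Grm4 rest on the EV filter: regions of fold 10.9 (H4WT) and 6.43 (H4K91R) at an end of the gene were left out for meeting EV. Grm3 had no H4K91R region at all. Grm5, which couples to phospholipase C, had regions only inside the gene, with an H4WT fold of 9.4.

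GABA-A receptor genes encode chloride channels. Of 19, 10 had H4WT at an end (52.6%, 28.9 to 75.6), beside 58.4% of all genes, and 5 had H4K91R (26.3%, 9.15 to 51.2), beside 37.9%. Most lie in clusters, and these differed. In the chromosome 7 cluster Gabrg3 (9.87 for H4WT, 7.35 for H4K91R) and Gabra5 (10.6 and 4.84) had both, and the end regions of Gabra5 also lie within 1 kb of an end of another gene. In the chromosome 5 cluster Gabra2 had H4WT alone (5.05), Gabra4 and Gabrb1, which overlap at their ends, shared 1 H4WT region there (4.33), and Gabrg1 had none. In the chromosome 11 cluster Gabra6 and Gabrb2 had none in any list. On the X chromosome Gabre had H4WT (6.58) and H4K91R (5.28), Gabrq had H4WT alone (5.57), and Gabra3 had none.

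Outside the clusters named above, Gabrd, the extrasynaptic delta subunit gene, had 9.99 for H4WT and 8.01 for H4K91R, the latter second among members. The rho subunit genes, known from the retina, had nothing at their gene ends. Gabrr2 had 3 H4WT regions (up to 5.57) and 1 H4K91R region (5.21) inside the gene. That H4K91R region covered 203 bases of the listed Gabrr2 start window, which lies inside the gene end. Gabrr3 had 2 H4WT regions (up to 6.39), and Gabrr1 had none. Gabrp, expressed mainly outside the brain, had a single H4K91Q region and nothing else. The 7 members without any tagged H4 region (14.9%, beside 28.8% of all protein-coding genes) were thus Gria3 and 6 GABA-A genes. None of the 7 had an EV region either.

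The GABA-B genes both had H4WT and H4K91R at the start. At Gabbr1 the folds were 9.26 and 4.61, and at Gabbr2 7.19 and 6.37. Gabbr2 also had 18 H4WT and 16 H4K91R regions over its 329 kb, against 7 and 1 at Gabbr1.

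Every member with H4K91R at a gene end also had H4WT at an end, 22 of 22, beside 94.5% of all genes with H4K91R. From the other side, 22 of 32 members with H4WT (68.8%) had H4K91R, beside 61.3%. The 10 with H4WT alone included Gabra2, Gabra4, Gabrb1, Gabrq, Grik1, Grin2b, Grin3a, Grm3 and Grm7. The members' end folds were centred where those of other genes were: the median was 7.37 for 32 members and 7.39 for all genes with H4WT, and 5.74 for 22 members and 5.59 for all genes with H4K91R.

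The strand is listed for 32 members, which allowed starts to be told from the other ends. At H4WT, 16 of the 32 had a region at the outer start of the RefSeq gene only, 2 at the other end only (Grin2c and Grik5) and 4 at both (Grin1, Grin2d, Grin3b and Grm2). At H4K91R the numbers were 10, 2 and 4. Grik5 lacked H4WT only at the outer end of the gene: its listed start lies further in, and there H4WT covered 196 bases of the start window, with a fold of 9.73. Among all 17492 protein-coding genes with a listed strand, H4WT lay at the start only in 40.4%, at the other end only in 3.94% and at both in 13.4%, and H4K91R in 26.7%, 5.24% and 5.41%. Measured from the listed starts, 23 of 32 members had H4WT within 1 kb and 17 had H4K91R, beside 57.5% and 35.0% of all genes.

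CpG content of the start window differed between members with and without tagged H4. Members with H4WT at the start held a median of 22 CpG per 300 bases (range 3 to 50, n = 23) and those without held 3 (0 to 22, n = 9). All protein-coding genes gave the same medians, 22 and 3. For H4K91R the medians were 22 (n = 17) and 10 (n = 15), beside 22 and 7 for all genes. The motif counted was CG, which reads the same on both strands. It occurred at least once in 31 of 32 members' windows (96.9%) and in 94.8% of all, and 15 or more times in 46.9% and 47.4%.

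By class of CpG content, H4WT was at the start of 14 of 15 members with 15 or more CpG, 7 of 9 with 5 to 14 and 2 of 8 with fewer, beside 87.7%, 53.1% and 12% of all genes. The exception with 22 CpG was Grin2c, where the H4WT region was left out for its EV overlap. Grin3b and Grm6, with 3 and 4 CpG, had H4WT and H4K91R at the start all the same. The 6 members with fewer than 5 CpG and no H4WT there were GABA-A genes: Gabra3, Gabra6, Gabrg1, Gabrp, Gabrr2 and Gabrr3. Of these Gabrr2 had H4K91R at its start. H4K91R was at the start of 11 of 15, 3 of 9 and 3 of 8 members in these classes, beside 53.8%, 31.6% and 7.16% of all genes. A gene counted here with a region at any listed start, while CpG came from the first. Held to the first start alone, as chosen after the values were seen, Gabrb1 no longer counted for H4K91R, whose numbers became 10 of 15, 3 of 9 and 3 of 8, beside 53.1%, 29.5% and 5.53%, and whose medians became 20 and 10.5 CpG (n = 16 each). For H4WT no member changed.

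**Figure D3:**
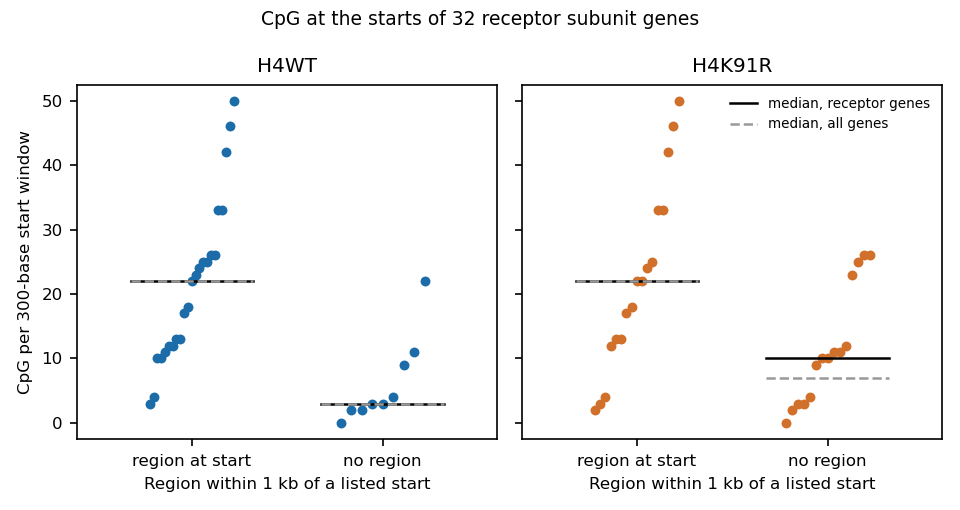
CpG dinucleotides in the 300-base start window (vertical axis) of the 32 members with a listed start, by whether H4WT (left) or H4K91R (right) lay within 1 kb of the start; points are genes, spread sideways by rank. Solid lines are members' medians and dashed lines those of all genes, which coincide at 22 and 3 for H4WT.

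Within the bodies of receptor genes tagged H4 was spread unevenly. At gene ends H4WT was present at 7 of 8 members under 20 kb, 7 of 13 of 20 to 100 kb, 6 of 10 of 100 to 300 kb and 12 of 16 longer ones, beside 51.3%, 65.6%, 70.8% and 68.4% of all genes of these lengths. Together the bodies cover 12.4 Mb and held 225 H4WT, 153 H4K91R, 13 H4K91Q and 15 EV regions by midpoint. That is 1.81 H4WT regions per 100 kb, beside 4.61 for all protein-coding genes and 1.84 for genes of 100 kb or more. For H4K91R the rate was 1.23, beside 2.75 and 1.28, and for H4K91Q 0.105, beside 0.313 and 0.25. Divided by length, the 21 members under 100 kb had 14.1 H4WT regions per 100 kb, beside 8.65 for all such genes, and the 26 longer members 0.915, beside 1.84. Of the 119 H4WT regions in the shorter members, 38 lay in Grm4 alone.

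Grm4, which encodes a presynaptic receptor, held more regions than any other member. Its 91.4 kb contained 38 H4WT regions by midpoint, with folds up to 12.6, and 22 H4K91R regions, up to 7.63. A further H4WT region of fold 13.7 in the gene was among those left out for meeting EV. Of 7610 protein-coding genes of 20 to 100 kb, 11 held more H4WT regions and 8 more H4K91R regions. Grm4 also had 4 EV regions, the most of any member, and 3 H4WT and 2 H4K91R regions there had been left out for meeting them, 1 of each at a gene end. Grik3 followed with 19 H4WT regions, then Gabbr2 and Grik5 with 17 each, and Grik4 with 12. By contrast Grm5 had 1 H4WT and 2 H4K91R regions in 551 kb, and 9 members had no H4WT and 15 no H4K91R region in the gene.

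**Figure D4:**
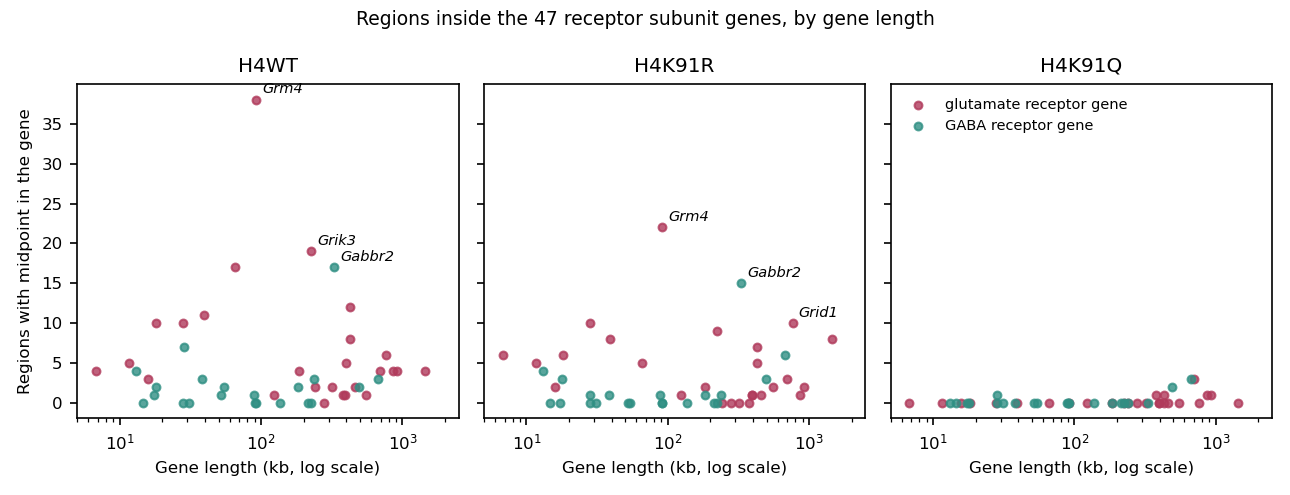
Number of regions with their midpoint in the gene (vertical axis) against gene length in kb (log scale) for the 47 members in each tagged list. Grm4 stands highest for H4WT (38) and H4K91R (22), while H4K91Q reaches 3 at most.

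H4K91Q regions over receptor genes were few and lay deep inside long genes. There were 13 in 8 genes: 3 each in Grik2 and Gabrg3, 2 in Gabrb1 and 1 each in Gria4, Grik4, Grm7, Grm8 and Gabrp. Apart from Gabrp (28.2 kb) these genes exceed 300 kb, and 7 of the 16 members of that length had an H4K91Q region (43.8%), beside 42.9% of all 557 such genes. The nearest gene end was 12 kb away at Gabrp and between 44.5 and 413 kb at the others.

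At 3 places all tagged forms met, and H4K91R was strongest there among all its regions over members. The place in Grm7, a presynaptic receptor gene, had an H4K91R fold of 14.3 (chr6:111153990-111154330), an H4K91Q fold of 7.54 and an H4WT fold of 9.11. In Gabrg3 the folds were 14.2 for H4K91R (chr7:57251574-57252011), 8.37 for H4K91Q, and 6.85 for H4WT. In Grm8 they were 12.2 (chr6:27508905-27509698), 7.34 and 5.12. Within its own list, the H4K91R region stood above 98.8%, 98.8% and 97.9% of regions at these places, the H4K91Q region above 89.3%, 93.2% and 88.1%, and the H4WT region above 91.1%, 71.3% and 35.1%. No other annotated gene overlaps these places, and they lie 413, 135 and 234 kb from the nearest gene end.

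The mutant pair met without H4WT at 3 further places, in Grik2, Gabrb1 and again in Gabrg3. The H4K91Q folds were 3.89, 6.58 and 3.55, and the highest H4K91R folds 5.20, 4.76 and 8.98. The remaining 7 H4K91Q regions met neither of the other tagged forms: 2 in Grik2 (4.61 and 3.92) and 1 each in Gabrb1 (4.30), Gabrg3 (4.71), Gria4 (6.58), Grik4 (4.95) and Gabrp (4.66). None of the 13 met an EV region.

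**Figure D5:**
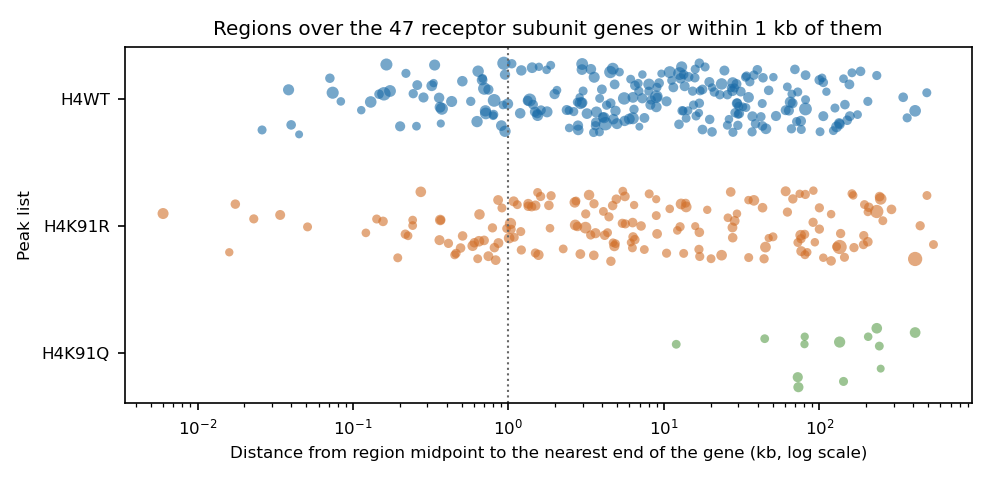
Distance from each region's midpoint to the nearest end of its gene in kb (horizontal axis, log scale) for the 3 tagged lists over receptor genes; point size grows with the authors' fold, the vertical spread is random, and the dotted line marks 1 kb. H4WT (233 regions) and H4K91R (166) are found on either side of the line, and the 13 H4K91Q regions start at 12 kb.

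Where regions fell at the same place was then compared over the genes and 1 kb beyond them. Of 233 H4WT regions, 94 met H4K91R (40.3%, 34 to 46.9), beside 37.7% in the whole list, and 3 met H4K91Q (1.29%, 0.266 to 3.72), beside 4.09%. Of 166 H4K91R regions, 106 met H4WT (63.9%, 56 to 71.2), beside 54% in the whole list, and 7 met H4K91Q (4.22%, 1.71 to 8.5), beside 16%. Of 13 H4K91Q regions, 3 met H4WT (23.1%, 5.04 to 53.8) and 6 met H4K91R (46.2%, 19.2 to 74.9), beside 18.8% and 53.5%. At gene ends 32 of 50 H4WT regions met H4K91R (64%, 49.2 to 77.1), beside 47.8% at all gene ends, and away from the ends 62 of 183 did (33.9%, 27.1 to 41.2), beside 34%. Of H4K91R regions, 37 of 42 at gene ends met H4WT (88.1%, 74.4 to 96), beside 86.2%. Away from the ends 69 of 124 did (55.6%, 46.5 to 64.6), beside 45%. Neighbouring regions of a gene are not independent, so these intervals are too narrow. The whole-list shares, also those away from gene ends, include regions outside genes, so the sets compared are unlike. By midpoint, 3235 of 14206 H4K91Q regions and 28379 of 47898 H4K91R regions lay in protein-coding gene bodies. Shares among regions over genes alone were not computed.

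The receptors' partner genes gave a frame for these counts: 50 genes for transmitter synthesis and loading, uptake, auxiliary subunits and scaffolds, all matched in the gene table. H4WT was at an end of 41 (82%, 68.6 to 91.4), beside 58.4% of all protein-coding genes, and H4K91R at 31 (62%, 47.2 to 75.3), beside 37.9%. Both intervals lie above the share of all genes, while those of the receptor genes hold it. Gene length was not matched in this comparison. In the 4 length classes, from shortest to longest, all genes had H4WT at an end in 51.3%, 65.6%, 70.8% and 68.4%. For H4K91R the shares were 33.3%, 41.4%, 49% and 48.1%. Some of these shares of longer genes lie inside the partner intervals. For H4WT this was 5 of 7 synthesis and loading genes, 6 of 7 uptake genes, 15 of 17 auxiliary subunit genes and 15 of 19 scaffold genes, and for H4K91R 4, 4, 12 and 11. The highest H4WT folds were 11.5 at Slc17a7, a vesicular glutamate transporter, 11 at Cacng4, an AMPA auxiliary subunit, and 10.7 at Neto2, a kainate auxiliary subunit. Neto2 also had the single H4K91Q region at a partner's end (4.11) and an H4K91R fold of 11.3. Dlg2, a postsynaptic scaffold, was the 1 partner with H4K91R (4.10) and no H4WT at an end. The intervals of receptors and partners overlap, and their difference was not tested.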

How the data were processed

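HA ChIP-seq peak lists of 4 mESC pulldowns (EV, H4WT, H4K91R, H4K91Q; 1 library each, grouped by sample title) were used, and 32 samples were not analysed here. Peaks were called with MACS2 on mm10, per the submitters' processing notes, each pulldown against its own input, per the peak names. Which aligner, MACS2 version and q cut-off were used is not given in the sources used here. The deposited score follows the −log10 q and was not used. The fold deposited by the authors is a ratio per peak, and their −log10 q served to filter and shorten lists. A deeper library can pass weaker places, so counts can move with depth.

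Overlapping peaks of a list were merged, which removed 0, and tagged regions sharing 1 bp or more with an EV region were dropped, which took 10 H4WT, 8 H4K91R and 0 H4K91Q regions over the members. Genes came from RefSeq GRCm38.p6, the build of mm10, on chromosomes 1 to 19, X and Y. A gene counted where a region overlapped 1 kb on either side of an end, or the gene plus 1 kb. Strand and start windows were taken from the RefSeq promoter table, which matched 32 of 47 members; where a gene had several windows the first was used for CpG, and regions were counted at any listed start, or, added after seeing the data, at the first alone. Gabrd, Gria1, Gria3, Grid1, Grik1, Grin2a, Grin2b, Grin3a, Grm4 and Grm5 were among those with no entry. Intervals are exact (Clopper-Pearson, 95%; scipy 1.17.1), and the limit for a count of 0 is 3 counts of the total. With 1 library per group no test was made. Region matching was checked on simulated regions.

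Members and lists were chosen with earlier results of these data known. Values are given for the 8 members of highest end fold in the H4WT and H4K91R lists, for all with H4K91Q, H4K91R without H4WT, EV or no tagged regions, and for Grin1 and Gria2, except that 5 members are counted in the totals and not reported by name here; others named were chosen after their values were seen. Partner genes were named for the 3 highest H4WT folds, an H4K91Q end region, or H4K91R without H4WT. Settings tried besides were −log10 q values from 5 up, tagged lists cut to 14314 peaks, EV-overlapping regions kept, windows of 500 bp and 2 kb, listed starts only, and overlaps of 50% of each region.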

Additional observations from a re-analysis of the deposited data

How the results depend on the processing

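List length moved the counts most, and the shares of all genes moved with them. With tagged lists cut to equal length, H4WT lay at an end of 14 receptor genes and 22 partner genes (all genes 29.2%). It lay over 22 receptor genes (all genes 36.7%) and at 0.354 regions per 100 kb. H4K91R then lay at an end of 8 receptor genes and 10 partner genes (all genes 13.9%), over 15 receptor genes (all genes 24.5%) and at 0.233 per 100 kb. Over receptor genes 2.17% of H4WT and 12.5% of H4K91R regions then met H4K91Q, and 7.69% of H4K91Q regions met H4WT. With −log10 q from 5 up, H4K91R lay at 14 receptor ends and 20 partner ends (all genes 25.1%) and at 0.612 per 100 kb. H4K91Q then lay at 0 partner ends (all genes 1.01%). EV lay at 0 receptor ends (all genes 0.434%), over 4 of 47 receptor genes (all genes 2.29%) and at 0.0322 per 100 kb. Those 4 were Gabbr2, Grik3, Grm4 and Grm5, with no NMDA gene among them. EV lay at 1 receptor end with windows of 500 bp (all genes 0.973%) and at 1 with listed starts only (all genes 0.858%). With an overlap of 50% of each region, 22.3% of H4WT regions met H4K91R and 31.3% of H4K91R regions met H4WT. Keeping EV-overlapping regions and windows of 2 kb left all 26 recomputed values within 1.5 times. The count of H4K91Q at receptor ends was 0 in every setting run. Shorter lists follow from the construction of 2 settings, and no other cause was tested. The EV list has no shortened form, so it was not counted at equal length. With 1 library per group no replicate could be left out. Depth is unknown, so absence from a list is not absence from the gene.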
